A study of Hipposideros armiger and Mus musculus with 20 samples.

Results

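The genes described are those of the mitochondrial ribosome, the mitoribosome, taken from a table of adipose tissue expression as every gene whose symbol begins with Mrpl or Mrps followed by a digit, pseudogenes left out, with an FPKM of at least 1 in at least 2 libraries of the species. FPKM counts the sequenced fragments of a gene, scaled for the length of its transcript and for the size of the library. The rule gave 57 of the 14871 genes in the table, 35 named Mrpl and 22 named Mrps, and it used no difference between groups. All 57 passed in both species, in which 10689 genes (mouse) and 11025 genes (bat) passed the same filter. No gene lay just outside it, since the member closest to the threshold, Mrpl48 in mouse and Mrps35 in bat, had a second-highest FPKM of 4.61 and 4.34. By subunit, 36 belong to the large and 21 to the small one, with Mrps18a counted in the large subunit where its protein sits.

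The study sequenced mRNA of adipose depots of mice of the ICR strain, a laboratory outbred stock, and of wild type great roundleaf bats, Hipposideros armiger. Mice gave 8 libraries, from interscapular brown adipose tissue (iBAT) and subcutaneous white adipose tissue (sWAT), and bats gave 12, from the same depots and from intra-abdominal white adipose tissue (aWAT). The animals had been held for 7 days at 30 °C or at 10 °C, called the cold here, and each of the 10 groups of species, depot and temperature held 2 libraries, 1 of a female and 1 of a male. The labels state no ages, nor how many animals stand behind a library, nor whether depots came from the same animals, so the p-values measure only the spread between these libraries, which includes the difference between the sexes.

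Mitochondria keep a small genome whose messages encode core subunits of the respiratory chain, and the mitoribosome is the machine that translates them at the inner membrane. Its RNA comes from the mitochondrial genome, while all its proteins are encoded in the nucleus, made in the cytosol and imported. Some of these proteins have counterparts in bacterial ribosomes and others are found only in mitochondria. Brown fat is rich in mitochondria, which burn fuel for heat through the uncoupling protein Ucp1, and white fat of some mammals can take on part of this machinery in the cold. By the known relations of the proteins, 33 of the genes were classed as having a bacterial counterpart and 23 as mitochondria-specific, and 1, Mrpl55, was not classed.

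The brown fat markers (Ucp1, Cidea, Dio2, Ppargc1a and Prdm16) had summed FPKM of 1462 and 1211 in mouse iBAT at 30 °C and of 4709 and 3908 in bat iBAT at 30 °C, against 13.5 and 18.6 in mouse sWAT, 483 and 633 in bat sWAT and 254 and 750 in bat aWAT. Ucp1 itself stood at no more than 1.20 FPKM in any of the 4 bat sWAT libraries, and Prdm16 was listed at 0 in 2 of them. Cidea went the other way, with 481 and 632 FPKM in bat sWAT at 30 °C and 1447 and 770 at 10 °C. In bat iBAT at 30 °C it had 1798 and 1198. The summed markers of bat sWAT at 10 °C came to 1455 and 773. Some libraries also held RNA of other tissues. The 8 measured skeletal muscle markers summed to 1612 and 1318 FPKM in mouse iBAT at 30 °C, to 24.8 and 773 at 10 °C, and to 1411 in the male library of mouse sWAT at 10 °C, where the other 3 mouse sWAT libraries had 10.4 to 27.3. In bat sWAT they summed to 11.2 and 2.15 at 30 °C and to 277 and 536 at 10 °C, and in bat aWAT and iBAT to no more than 2.22. The 8 B lymphocyte markers summed to 12630 and 2731 in mouse sWAT at 30 °C and to 1399 and 98.9 at 10 °C, and the 4 measured T lymphocyte markers to 183 and 196 against 61.0 and 1.23. The 3 measured epithelial markers summed to 98.05 in the female and 1.52 in the male library of mouse sWAT at 30 °C. At 10 °C they summed to 47.5 and 0.107. In a bulk tissue, fewer cells of a type and less RNA per cell cannot be told apart.

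**Figure D1:**
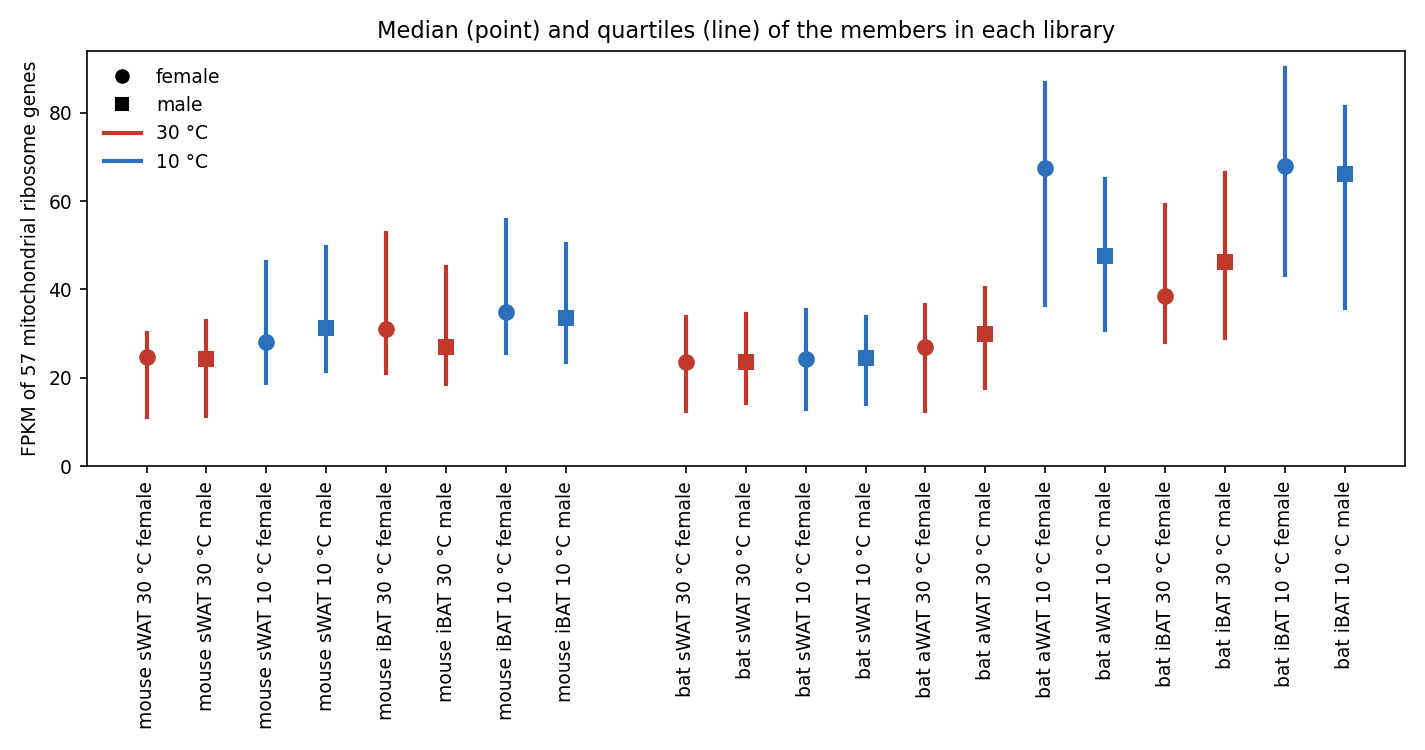
Median FPKM (point) and quartiles (line) of the 57 mitoribosomal genes in each of the 20 libraries, circles for females and squares for males, red for 30 °C and blue for 10 °C. The bat aWAT libraries stand at 27.0 and 30.0 at 30 °C and at 67.4 and 47.6 at 10 °C, while the 4 bat sWAT libraries stay between 23.5 and 24.5.

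The typical level of the mitoribosomal genes, taken as their median FPKM in a library, was lowest in the subcutaneous fat of both species and highest in the brown fat of cold-held animals. In mouse sWAT it was 24.8 in the female and 24.3 in the male at 30 °C, and 28.2 and 31.4 at 10 °C. In mouse iBAT it was 31.1 and 26.9 at 30 °C, and 34.9 and 33.6 at 10 °C. The ranges of mouse sWAT at 10 °C and of mouse iBAT at 30 °C overlapped, while mouse sWAT at 30 °C lay below and mouse iBAT at 10 °C above all other mouse groups.

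Bat depots spread further apart. In bat sWAT the median was 23.7 and 23.5 at 30 °C and 24.3 and 24.5 at 10 °C. Bat aWAT moved from 27.0 and 30.0 at 30 °C to 67.4 and 47.6 at 10 °C, and bat iBAT from 38.5 and 46.2 to 68.0 and 66.1. At 30 °C the abdominal fat thus stood next to the subcutaneous fat, and at 10 °C its female library stood within the range of bat iBAT at 10 °C and its male library just above that of bat iBAT at 30 °C.

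As a share of all FPKM in the library, the 57 genes made up 0.525% and 0.580% in bat aWAT at 30 °C and 1.09% and 0.869% at 10 °C. In mouse sWAT the share was 0.468% and 0.510% at 30 °C and 0.660% and 0.750% at 10 °C. In bat sWAT it was 0.499% and 0.528% at 30 °C and 0.506% and 0.492% at 10 °C. In bat iBAT it was 0.813% and 0.866% at 30 °C and 1.15% and 1.05% at 10 °C. In mouse iBAT it was 0.775% and 0.668% at 30 °C and 0.776% and 0.770% at 10 °C. Bat aWAT, bat iBAT and mouse sWAT thus held a larger share in both cold libraries than in either warm one, while the ranges of bat sWAT and of mouse iBAT overlapped.

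Among themselves the genes differed widely in level. In mouse the highest by median FPKM over the 8 libraries were Mrpl42 (100), Mrpl34 (93.5) and Mrpl12 (88.3), all of the large subunit, and the lowest were Mrpl35 (7.35), Mrpl23 (4.18) and Mrpl48 (4.18). In bat the highest over 12 libraries were Mrpl24 (135), Mrps26 (87.6) and Mrpl20 (87.4), and the lowest Mrps6 (7.80), Mrps10 (7.42) and Mrps35 (2.11). By group mean, 32 of the 57 were highest in mouse iBAT at 10 °C, 17 in mouse iBAT at 30 °C, 6 in mouse sWAT at 10 °C and 2, Mrpl23 and Mrps26, in mouse sWAT at 30 °C. In bat 48 were highest in iBAT at 10 °C and the other 9, Mrpl24 and Mrps26 among them, in aWAT at 10 °C. Levels are not compared between the species, since bat reads were set against identifiers of mouse genes by a route that is not given. Across the 8 mouse libraries, the highest value of a gene was a median of 2.04 times its lowest. The ratio ran from 1.32 for Mrpl3 to 6.16 for Mrps2. Across the 12 bat libraries the median was 3.07 times, from 1.44 for Mrpl54 to 10.0 for Mrpl10. Such a ratio can only grow as libraries and depots are added, and the bat has more of both, so it is not compared between the species.

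**Figure D2:**
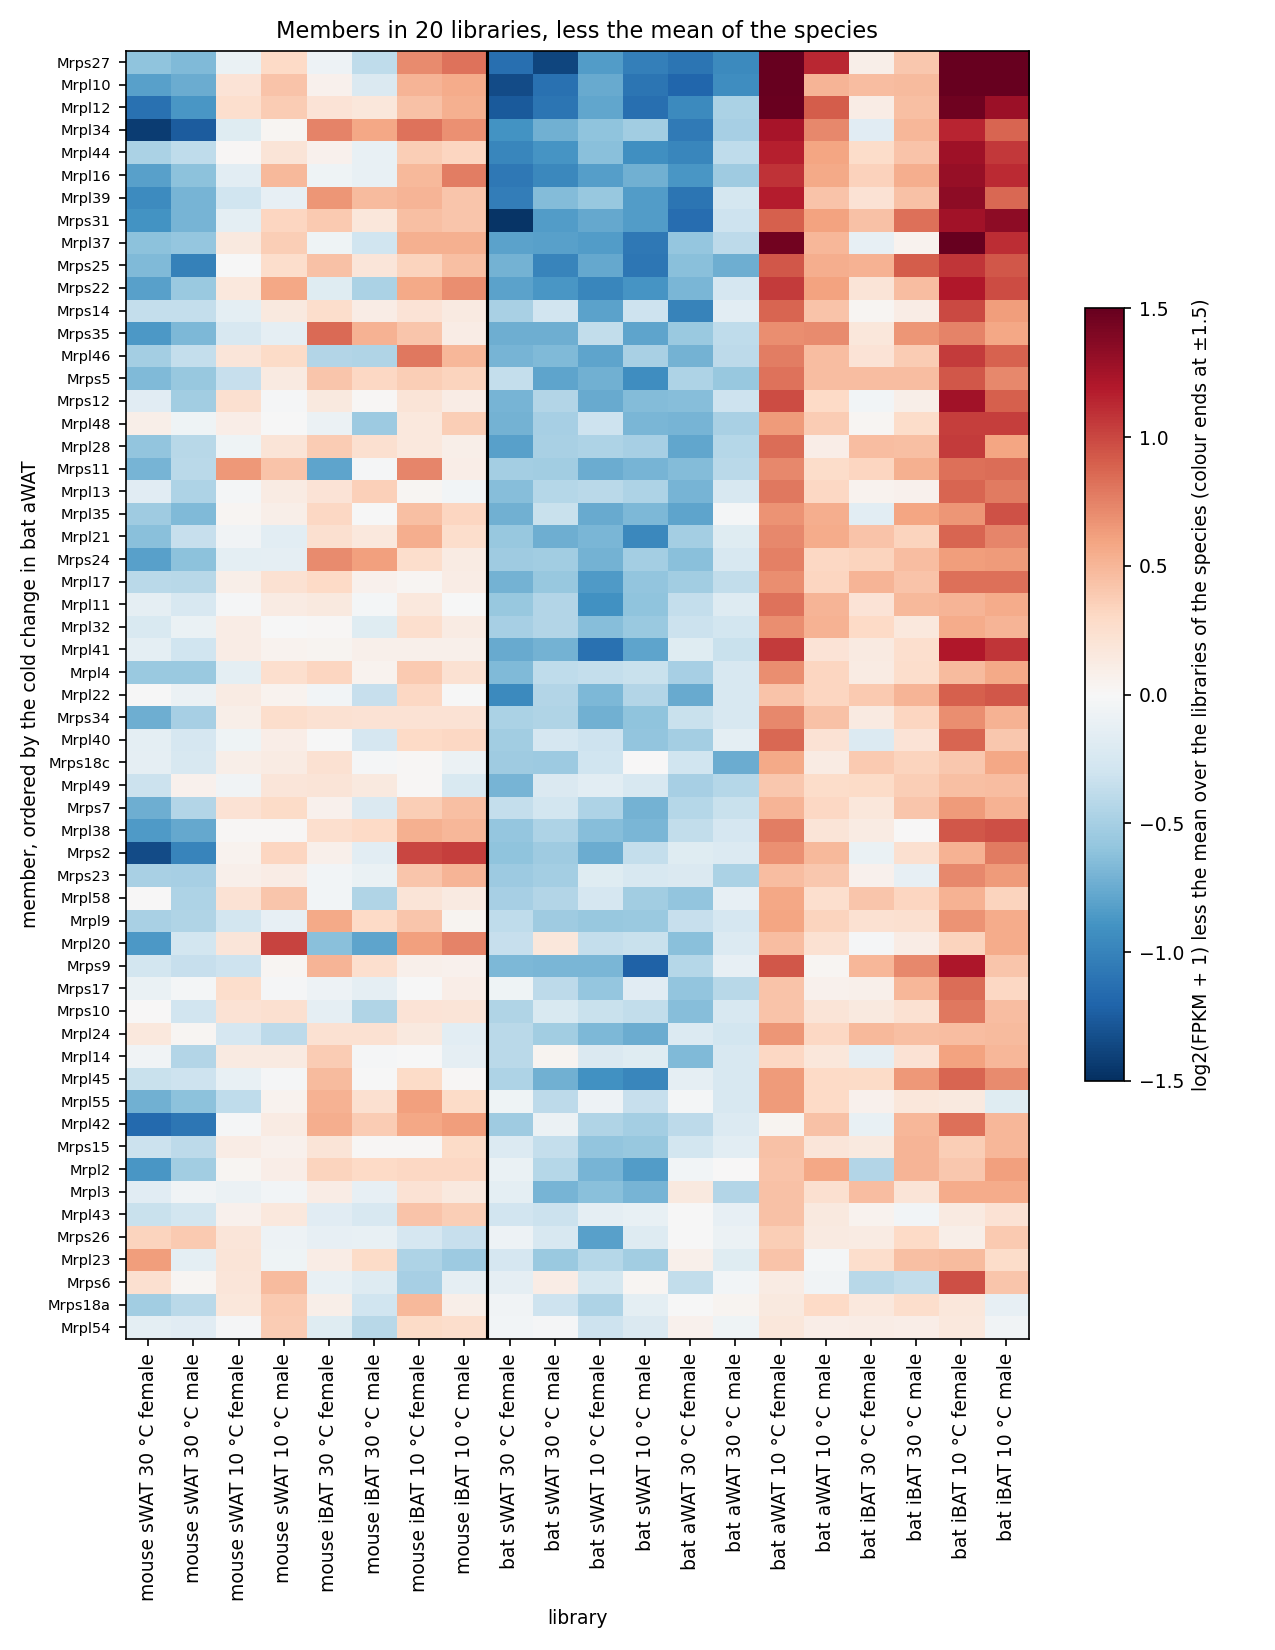
Each of the 57 genes (rows, ordered by the cold change in bat aWAT) in each library (columns), as log2(FPKM + 1) less the mean over the libraries of the species, so that colours compare libraries within a species only. The 2 bat aWAT libraries at 10 °C and the 4 of bat iBAT are mostly red, the 6 other bat libraries mostly blue, and the lowest row, Mrpl54, is pale in every bat column.

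Cold and warm groups were compared with limma, a linear model with a spread shared across genes, on log2(FPKM + 1), and a gene was called at an adjusted p under 0.05 over all genes of the comparison. Because the median gene itself shifted in several comparisons (by -0.30 in mouse iBAT, -0.37 in mouse sWAT, -0.10 in bat iBAT, 0.07 in bat sWAT and -0.14 in bat aWAT in the cold), every log2 change below is given less that median, with its standard error (SE). The calls and adjusted p-values are those of the change without this shift. A change of 1 on this scale doubles FPKM + 1 relative to the typical gene.

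In bat aWAT most of the genes rose in the cold. All 57 genes lay above the median of all genes, and their own median change was 1.01, against quartiles of -0.33 and 0.38 over all genes. Of the 57, 42 rose and none fell, where 8.66% of all genes rose and 6.67% fell. Both cold libraries lay above both warm ones for 55 of the 57, which was so for 23.6% of all genes. Markers of other cells moved with this comparison: 3 of 5 endothelial markers fell (summed FPKM 171 and 150 at 30 °C, 70.6 and 110 at 10 °C), as did 1 of 4 for mesothelium (61.0 and 98.6 against 32.5 and 70.4), and 3 of 5 for brown fat rose (254 and 750 against 8798 and 4838, with Prdm16 at 0 in the warm female). No marker of 7 for skeletal muscle or of 3 for B lymphocytes that could be tested was called, and Pax5 was at 0 in all but 1 of these libraries. Their part in the result was not tested. The call depended on the female libraries: without the female at 10 °C 12 genes were called, and without the female at 30 °C 14, while the median change stayed at 0.77 and 0.89.

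The gene with the largest change was Mrps27, a mitochondria-specific protein of the small subunit with pentatricopeptide repeats, a fold that binds RNA. In bat aWAT its FPKM was 9.69 in the female and 10.8 in the male at 30 °C, and 69.3 and 49.2 at 10 °C. Both cold libraries lay far above the warm ones, and the female one was above the 66.7 and 68.2 of bat iBAT at 10 °C. The change was 2.54 ± 0.20 (SE, adjusted p = 0.000226).

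Next in bat aWAT came the stalk, the flexible arm of the large subunit that draws translation factors to the ribosome. Mrpl10 anchors it and stood at 12.5 and 15.1 FPKM at 30 °C and at 86.8 and 42.8 at 10 °C. Mrpl12, which forms the arm itself, stood at 47.2 and 66.5 at 30 °C and at 260 and 174 at 10 °C. In both genes the 2 groups were well apart, with the female cold library the highest. The changes were 2.21 ± 0.29 (adjusted p = 0.00192) and 2.04 ± 0.25 (adjusted p = 0.00140). Mrpl11, at the base of the stalk, moved less, from 13.5 and 15.3 to 31.8 and 25.6 FPKM, a change of 1.08 ± 0.18 (adjusted p = 0.00875). Mrpl34, a short protein of the large subunit with a bacterial counterpart, had 17.4 and 26.2 FPKM at 30 °C and 89.8 and 62.2 at 10 °C. Its change was 1.90 ± 0.27 (adjusted p = 0.00316), the fourth in size.

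Proteins of the small subunit core also rose in bat aWAT. Mrps5, a core protein near the path of the messenger RNA, went from 32.3 and 29.9 FPKM to 80.0 and 62.3, a change of 1.29 ± 0.20. Mrps12, which sits at the decoding site, went from 11.2 and 14.3 to 36.4 and 22.4, a change of 1.25 ± 0.24. Mrps2 went from 36.6 and 35.7 to 67.4 and 58.6, a change of 0.92 ± 0.19. All 3 were called (adjusted p = 0.00467, 0.0139 and 0.0234), and none of them overlapped between the temperatures.

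Mrpl45 and Mrpl58, both of the large subunit, lay below the median change of the 57 in bat aWAT. The lower quartile of the 57 changes there was 0.89 and the median 1.01. Mrpl45, which holds the ribosome to the inner membrane, went from 41.6 and 38.5 FPKM to 72.0 and 56.4, a change of 0.79 ± 0.19 (adjusted p = 0.0432). Mrpl58, a hydrolase that frees stalled peptides, went from 5.30 and 7.71 to 13.1 and 10.3, a change of 0.91 ± 0.21 (adjusted p = 0.0337). Both were the same way round in both sexes, with cold above warm. Of the paralogs of Mrps18, Mrps18c, of the small subunit, changed by 1.00 ± 0.21 (adjusted p = 0.0238), and Mrps18a had 29.0 and 30.0 FPKM at 30 °C and 32.3 and 36.0 at 10 °C, a change of 0.34 ± 0.18 that was not called (adjusted p = 0.457). Mrps18b, Mrps30 and Mrps36 were not analysed here.

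The smallest change in bat aWAT was that of Mrpl54, a mitochondria-specific protein of the large subunit. Its FPKM was 13.5 and 12.3 at 30 °C and 14.6 and 13.9 at 10 °C, and over all 12 bat libraries it ran only from 10.2 to 14.6. The groups did not overlap, but the change of 0.27 ± 0.15 was not called (adjusted p = 0.563). Mrps6 (0.37) and Mrpl23 (0.39) were the only members whose warm and cold libraries overlapped there, and Mrps26, the second highest member in bat by level, changed by 0.43 ± 0.22 (adjusted p = 0.384). The 15 genes not called in bat aWAT had changes from 0.27 to 1.00.

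**Figure D3:**
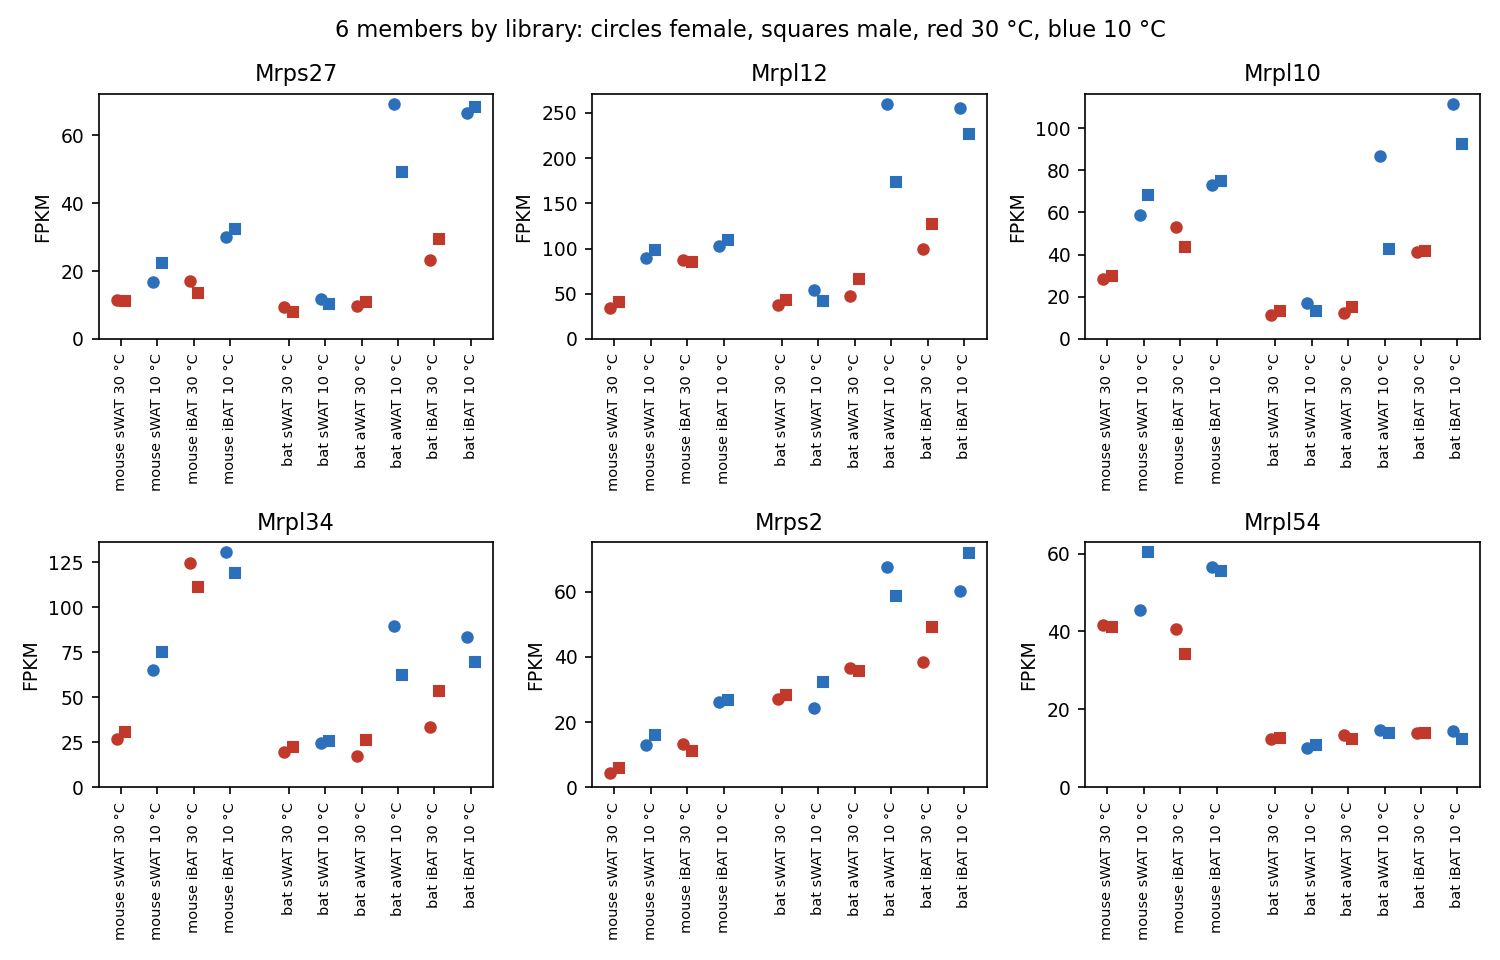
FPKM of Mrps27, Mrpl12, Mrpl10, Mrpl34, Mrps2 and Mrpl54 in each library (circles female, squares male, red 30 °C, blue 10 °C), each panel with its own axis from 0. In bat aWAT the cold libraries of Mrps27 stand at 69.3 and 49.2 and the warm ones at 9.69 and 10.8, while Mrpl54 stays between 10.2 and 14.6 in all 12 bat libraries.

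In the other white depot of the bat no gene was called. In bat sWAT limma called 0 of the 57 genes in either direction, and 0 had an unadjusted p under 0.05, where 0.943% of all genes rose and 0.0726% fell. The median change was -0.15, and 19 of the 57 lay above the median of all genes. Both cold libraries lay above both warm ones for 9 of the 57 (27.5% of all genes) and below them for 16 (14.8%). The genes with the smallest p were Mrps23 (21.4 and 21.9 FPKM at 30 °C, 27.7 and 26.6 at 10 °C, change 0.25 ± 0.15, adjusted p = 0.511) and Mrps18c (0.32 ± 0.21, adjusted p = 0.550) on the higher side, and Mrpl45 (33.1 and 27.4 at 30 °C, 24.0 and 22.8 at 10 °C, change -0.42 ± 0.19, adjusted p = 0.549) and Mrpl2 (-0.57 ± 0.27, adjusted p = 0.552) on the lower. In this comparison 7 of 7 tested skeletal muscle markers rose (277 and 536 summed FPKM in the cold against 11.2 and 2.15), and their part in the result was not tested.

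The cold change itself was compared between the white depots of the bat as a difference of differences. It was larger in aWAT than in sWAT for 17 of the 57 genes and smaller for none, where 2.68% and 1.73% of all genes were called. All 57 differences lay above the median of all genes, with a median of 1.20. Mrps27 led with 2.27 ± 0.29 (adjusted p = 0.00497), followed by Mrpl10 (1.96 ± 0.41, adjusted p = 0.0432), Mrpl12 (1.87 ± 0.35, adjusted p = 0.0306) and Mrpl37 (1.8 ± 0.39, adjusted p = 0.0496). The count moved with single libraries: without the male aWAT library at 30 °C it was 16, without the male aWAT library at 10 °C 26, and without any 1 of the other 6 libraries, the 4 of sWAT and the 2 female ones of aWAT, between 1 and 3. The median stayed between 0.93 and 1.45. With libraries of the same temperature and sex held as a replicate block, 36 were called larger. Over all 11025 genes the block also raised the counts, from 295 to 604 larger and from 191 to 732 smaller. Of the markers, the cold change was smaller in aWAT for 7 of 7 of skeletal muscle, 1 of 5 of macrophages and 1 of 4 of mesothelium and larger for 1 of 5 of brown fat, and their part was not tested.

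Against the brown depot of the bat, the cold change of aWAT was not called larger or smaller for any of the 57 genes by limma (0 in each direction, with 19 at an unadjusted p under 0.05, where 0.336% and 0% of all genes were called). The median difference was 0.51, or 0.26 to 0.74 without 1 library at a time, and 54 of 57 lay above the median of all genes. Mrps25 (1.15 ± 0.29, adjusted p = 0.177) and Mrps27 (1.09 ± 0.29, adjusted p = 0.191) were on one side, and Mrps6 (-0.84 ± 0.32, adjusted p = 0.381) and Mrpl38 (-0.08 ± 0.27, adjusted p = 0.962) on the other.

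The brown depot of the bat was compared in the same way. In bat iBAT 6 of the 57 rose and none fell in the cold (1.22% and 0.980% of all genes), with a median change of 0.50, and 55 lay above the median of all genes. Mrpl37, a mitochondria-specific protein of the large subunit, went from 29.5 and 33.3 FPKM to 93.4 and 70.5 (1.45 ± 0.28, adjusted p = 0.0401). Mrps27 went from 23.4 and 29.4 to 66.7 and 68.2 (1.43 ± 0.20, adjusted p = 0.0158). In both genes the cold pair lay above the warm pair, which was so for 45 of the 57 and for 20.1% of all genes.

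The other 4 genes called in bat iBAT were Mrps6, Mrpl38, Mrpl48 and Mrps23. Mrps6, a small subunit protein with a bacterial counterpart, had 5.79 and 6.02 FPKM at 30 °C and 16.7 and 11.2 at 10 °C (1.19 ± 0.22, adjusted p = 0.0401). It was the lone gene of the 6 that was not also called in bat aWAT, where it had 6.05 and 7.84 FPKM against 8.85 and 7.76. Mrpl38, mitochondria-specific and of the large subunit, went from 44.5 and 41.2 to 79.0 and 80.6 (0.98 ± 0.19, adjusted p = 0.0480). Those not called with the lowest changes were Mrps18a (-0.08 ± 0.18, adjusted p = 0.596) and Mrpl55 (-0.03 ± 0.20, adjusted p = 0.753). Of the markers, 1 of 5 for brown fat rose and no other was called. These 6 calls were not firm: without 1 library at a time, 0 or 1 gene was called, and 2 or 3 without the filter, without the trend, or under 3 other scalings.

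In mouse sWAT about as many genes were called as not. In the cold 29 of the 57 rose and none fell, where 7.06% of all genes rose and 26.8% fell, and 56 lay above the median of all genes with a median change of 0.90. Both cold libraries lay above both warm ones for 49 of the 57 (15.5% of all genes). With the coefficients taken less the median of all genes 46 were called, and 47 under median-ratio scaling. Of all 10689 genes, 1222 and 1188 rose in these settings, beside 755 in the main fit. Without the female library at 30 °C 1 gene was called, without the male at 30 °C 13, without the male at 10 °C 9 and without the female at 10 °C 31, with a median change from 0.70 to 1.10.

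Mrps2 had the largest change in mouse sWAT. Its FPKM was 4.36 and 5.81 at 30 °C and 13.1 and 15.9 at 10 °C, and the change was 1.72 ± 0.18 (adjusted p = 0.0104). Mrpl12 went from 34.2 and 40.6 FPKM to 89.7 and 98.6 (1.68 ± 0.14, adjusted p = 0.00783), reaching the range of mouse iBAT, 85.1 to 110. Mrpl34 went from 27.0 and 30.6 to 65.2 and 75.4 (1.62 ± 0.15, adjusted p = 0.00845), which is still below the 112 and 124 of mouse iBAT at 30 °C. Mrpl42, a mitochondria-specific protein of the large subunit and the highest member in mouse, went from 36.8 and 38.8 to 82.5 and 90.9 (1.54 ± 0.13, adjusted p = 0.00808).

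All 4 were well apart between the temperatures. Of the other stalk genes of mouse sWAT, Mrpl10 went from 28.5 and 29.9 FPKM to 58.8 and 68.5 (1.46 ± 0.15, adjusted p = 0.0113), and Mrpl11 had 10.4 and 9.56 against 11.3 and 12.6 (0.61 ± 0.14, adjusted p = 0.221). Of the other genes with a set place in the account, Mrps27 (1.09 ± 0.18, adjusted p = 0.0286) and Mrps18a (1.10 ± 0.20, adjusted p = 0.0350) were called, and Mrps5 (0.87), Mrps12 (0.82), Mrpl58 (0.91), Mrpl45 (0.62) and Mrps18c (0.66) were not. Mrpl24, which binds ribosomal RNA in the large subunit and was the highest member in bat, was the 1 gene below the median of all genes in mouse sWAT, with 29.6 and 27.1 FPKM at 30 °C and 22.1 and 19.9 at 10 °C (-0.05 ± 0.15, adjusted p = 0.0691).

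Markers of other cell types moved with this comparison. In mouse sWAT 3 of 5 for brown fat rose in the cold, from 13.5 and 18.6 to 1801 and 3626 summed FPKM. For B lymphocytes 2 of 8 fell and for T lymphocytes 3 of 4, with the sums given above, and 1 of 5 for macrophages fell (132 and 141 against 98.5 and 83.2). For skeletal muscle 1 of 8 rose, and for endothelium 1 of 5. Of 3 for epithelium 0 were called, with sums of 98.05 and 47.5 in the warm and cold female libraries and 1.52 and 0.107 in the male ones. No brown fat, lymphocyte or muscle marker was at 0 in any mouse sWAT library. The male cold library, which held the most muscle RNA of the 4, had the higher FPKM of the cold pair for Mrps2, Mrpl12, Mrpl34 and Mrpl42. The part of these cells in the result was not tested.

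In mouse iBAT 9 of the 57 genes rose and none fell in the cold (2.84% and 11.2% of all genes), with a median change of 0.44, and 53 lay above the median of all genes. Both cold libraries lay above both warm ones for 28 of the 57 (13.6% of all genes) and below them for 9 (59% of all genes). Mrpl20, an early-binding protein of the large subunit with a bacterial counterpart, had 35.7 and 31.8 FPKM at 30 °C and 85.6 and 93.6 at 10 °C. Mrpl46, mitochondria-specific and of the large subunit, had 19.2 and 19.1 against 46.3 and 37.7. Mrps2 had 13.3 and 11.2 against 26.2 and 26.9, and in all 3 the cold pair was about 2 to 3 times the warm pair.

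The changes in mouse iBAT were 1.68 ± 0.30 for Mrpl20 (adjusted p = 0.0338), 1.38 ± 0.14 for Mrpl46 (adjusted p = 0.0115), 1.36 ± 0.18 for Mrps2 (adjusted p = 0.0187) and 1.29 ± 0.18 for Mrps27 (adjusted p = 0.0218), which went from 17.0 and 13.6 FPKM to 30.1 and 32.5. The others called were Mrpl10, Mrpl37, Mrpl43, Mrps22 and Mrps23. Mrps24 (76.2 and 71.0 FPKM at 30 °C, 55.8 and 50.3 at 10 °C, change -0.17 ± 0.13, adjusted p = 0.0643) and Mrpl23 (4.49 and 5.18 against 2.69 and 2.49, change -0.40 ± 0.27, adjusted p = 0.121) were lowest and not called. No gene was called without any 1 of the 4 libraries, and 20 were called under median-ratio scaling and 16 with coefficients less the median of all genes. Of all 10689 genes, 687 and 501 rose under these scalings, beside 304 in the main fit. Of the markers, 3 of 5 for macrophages (25.5 and 23.5 summed FPKM at 30 °C, 11.6 and 10.9 at 10 °C) and 1 of 5 for endothelium fell, and 2 of 5 for brown fat rose (1462 and 1211 against 5335 and 6310). None of the 8 for skeletal muscle was called, with sums of 1612 and 1318 against 24.8 and 773 and Actn3 at 0 in the cold female. The part of these cells in the result was not tested.

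The difference in cold change between the mouse depots was not called for any of the 57 genes by limma (0 in each direction, with 14 at an unadjusted p under 0.05, where 0.0561% and 0.0374% of all genes were called). The median difference, sWAT less iBAT, was 0.40, or 0.22 to 0.60 without 1 library at a time. Without the female sWAT library at 10 °C 8 genes were called, and 0 without any other. Mrpl34 (1.22 ± 0.21, adjusted p = 0.0947) and Mrps24 (1.09 ± 0.19, adjusted p = 0.0966) were on one side, and Mrpl46 (-0.37 ± 0.20, adjusted p = 0.294) and Mrpl48 (-0.50 ± 0.28, adjusted p = 0.314) on the other. So the larger count in mouse sWAT is not shown to be a larger response of the genes.

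**Figure D4:**
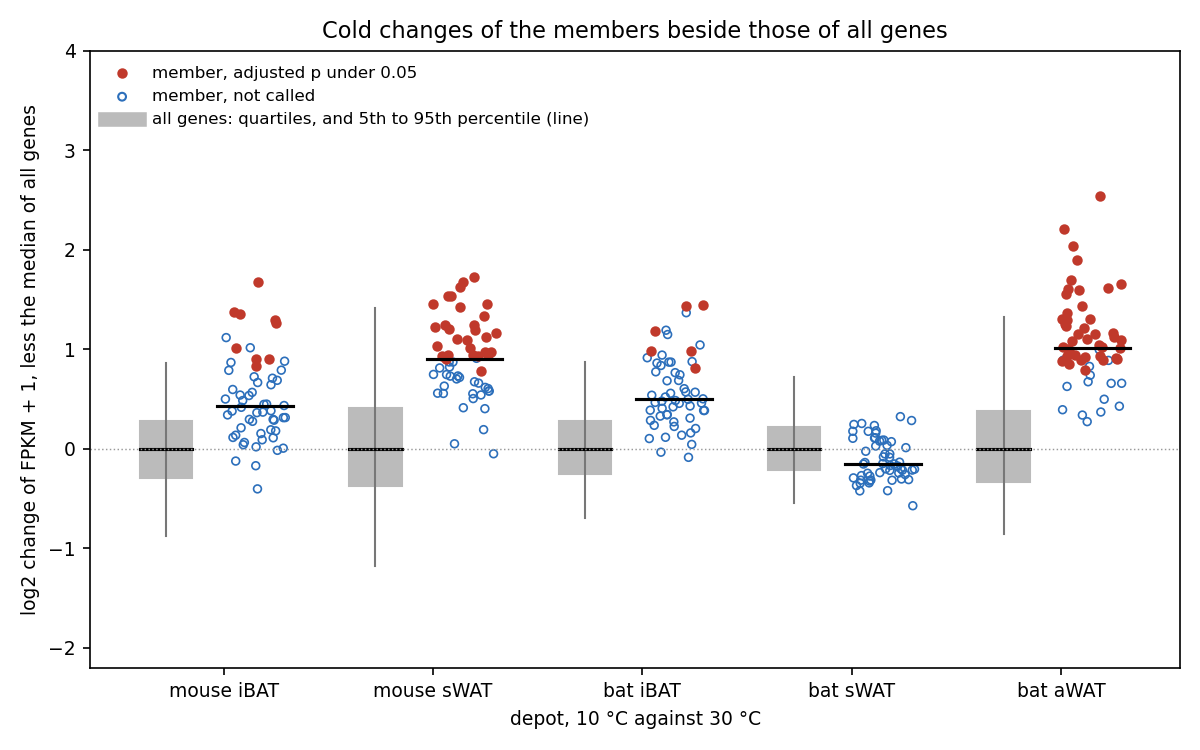
Change of each of the 57 genes in the cold (points) in the 5 depots, as log2 change of FPKM + 1 less the median of all genes, beside all genes (box for the quartiles, line for the 5th to 95th percentile, black bars for medians). Filled red points are called genes: 9 in mouse iBAT, 29 in mouse sWAT, 6 in bat iBAT, 0 in bat sWAT and 42 in bat aWAT.

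Across the 4 depots with any call, 3 genes rose in the cold in all 4: Mrpl37, Mrps23 and Mrps27, each mitochondria-specific. A further 6 rose in 3 of the 4 (Mrpl10, Mrpl20, Mrpl38, Mrpl46, Mrps2 and Mrps22), 18 rose in 2 and 20 in 1. The 10 called in none were Mrpl3, Mrpl14, Mrpl23, Mrpl40, Mrpl54, Mrpl55, Mrps9, Mrps15, Mrps17 and Mrps26. Of all genes, 2.84% rose in mouse iBAT, 7.06% in mouse sWAT, 1.22% in bat iBAT and 8.66% in bat aWAT. How many of all genes rose in several of these depots was not counted. The calls in iBAT of both species depended on single libraries, as given above. Mrps23, of the small subunit, went from 9.23 and 9.14 to 14.0 and 14.5 FPKM in mouse sWAT (0.95 ± 0.12, adjusted p = 0.0207) and from 27.0 and 22.5 to 44.0 and 42.0 in bat aWAT (0.92 ± 0.15, adjusted p = 0.00889).

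Mouse sWAT and bat aWAT, which share no library, were set side by side gene by gene. Of the 29 genes called in mouse sWAT, 25 (86.2%) were also called in bat aWAT, where 73.7% of all 57 were called. These 25 are 59.5% of the 42 called in bat aWAT, beside 50.9% of all 57 called in mouse sWAT. Whether the overlap exceeds what these shares give was not tested. Over the 57 genes the changes had a Pearson r of 0.48 and a Spearman rho of 0.45. These are a description, since genes of 1 complex are not independent and the level of a gene bears on both. Mrps2 and Mrpl42 stood out on the mouse side, with 1.72 and 1.54 in mouse sWAT against 0.92 and 0.67 in bat aWAT, and Mrps27 on the bat side, with 2.54 against 1.09. For 16 of the 57 the mouse value was the larger.

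**Figure D5:**
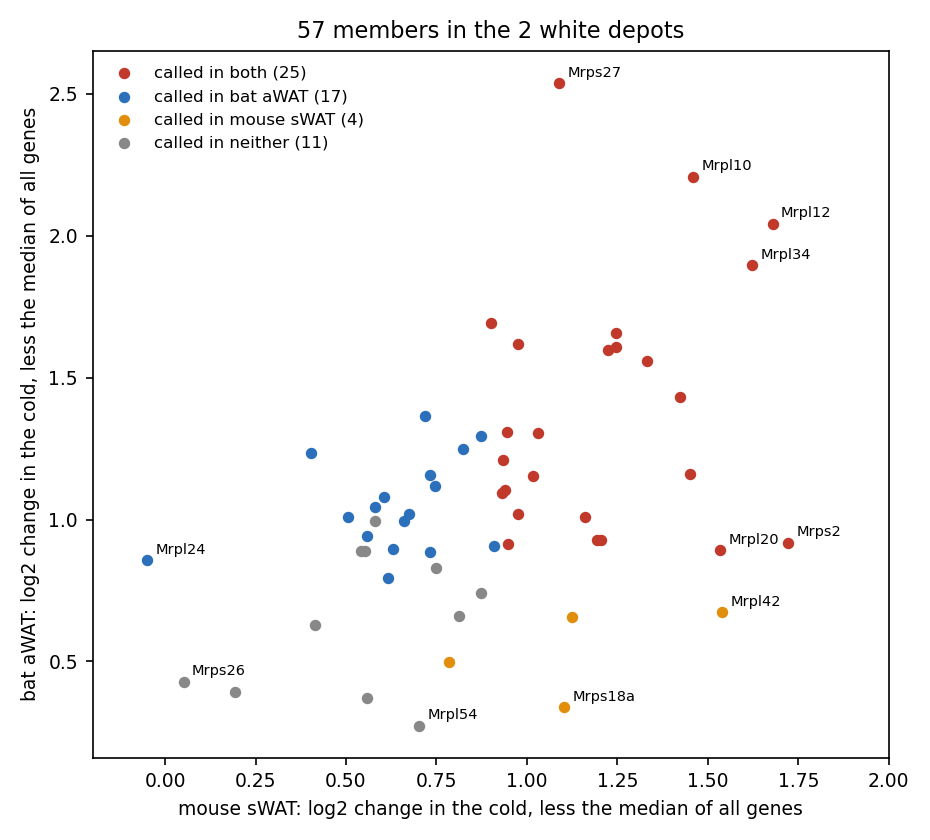
Cold change of each of the 57 genes in mouse sWAT (horizontal) and bat aWAT (vertical), both as log2 change of FPKM + 1 less the median of all genes, coloured by where the gene was called. The 25 genes called in both include Mrps27, Mrpl10, Mrpl12 and Mrpl34 at the top, and Mrpl54 lies lowest.

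For iBAT of the species the lists of called genes were short. Of the 9 called in mouse and the 6 called in bat, 3 were shared (33.3% and 50%), again Mrpl37, Mrps23 and Mrps27. Of all 57, 10.5% were called in bat iBAT and 15.8% in mouse iBAT. Over the 57 genes r was 0.335 and rho 0.337. Between the depots of a species, which share no library in their cold comparisons but may share animals, rho was 0.47 for mouse iBAT and sWAT and 0.62 for bat iBAT and aWAT.

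Both subunits took part. In bat aWAT 26 of 36 large subunit genes and 16 of 21 small subunit genes rose, with median changes of 1.01 in both. In mouse sWAT 18 of 36 and 11 of 21 rose, with medians of 0.89 and 0.94, and in mouse iBAT 5 and 4 with medians of 0.49 and 0.36. By origin, 25 of 33 genes with a bacterial counterpart and 17 of 23 mitochondria-specific genes rose in bat aWAT, and 14 of 33 and 15 of 23 in mouse sWAT. In bat iBAT 1 and 5 rose, with medians of 0.50 and 0.74. The difference between the classes was not tested.

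Depots were also compared at 1 temperature, and these comparisons share libraries with the cold comparisons above. At 30 °C, mouse iBAT had 30 of the 57 genes higher than mouse sWAT and 1 lower, where 10.7% of all genes were higher and 48.0% lower. The median difference was 1.01, with 57 of 57 above the median of all genes, which was -0.57. The same comparison called 8 of 8 B lymphocyte markers lower (201 and 23.6 summed FPKM in iBAT, 12630 and 2731 in sWAT), 4 of 4 for T lymphocytes (0.743 and 0.8 against 183 and 196) and 5 of 5 for macrophages (25.5 and 23.5 against 132 and 141). It called 3 of 5 brown fat, 1 of 8 muscle, 3 of 5 endothelial and 1 of 1 mesothelial markers higher, with 1 endothelial marker lower, and their part was not tested. Mrpl34 stood at 124 and 112 FPKM in iBAT against 27.0 and 30.6 in sWAT (2.57 ± 0.15, adjusted p = 0.000951). Mrpl42 followed with 122 and 110 against 36.8 and 38.8 (2.16 ± 0.13, adjusted p = 0.00119), then Mrps35 with 73.1 and 58.2 against 21.7 and 24.9 (2.02 ± 0.17) and Mrpl39 with 40.0 and 34.9 against 12.4 and 14.9 (1.97 ± 0.15). In these 4 genes no value of sWAT came near those of iBAT, and over the 57 the iBAT pair lay above the sWAT pair for 42 (18.1% of all genes) and below it for 4 (65.7%).

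The gene lower in mouse iBAT was Mrps26, with 22.6 and 22.7 FPKM against 31.5 and 32.8 in sWAT (adjusted p = 0.0206), yet relative to all genes it changed by 0.09 ± 0.13. It was not called lower under any of 3 other scalings or with the coefficients less the median, where 37 to 49 genes were called higher. Of all 10689 genes, 1378 to 2500 were called higher in these settings, beside 1144 in the main fit. Without the female iBAT library 18 were called higher. At 10 °C, 6 of the 57 were higher in mouse iBAT and 1 lower (2.32% and 27.6% of all genes), with a median of 0.68, or 0.45 to 0.86 without 1 library at a time. The iBAT pair lay above the sWAT pair for 32 (9.64% of all genes) and below it for 7 (64%). Mrps2 (26.2 and 26.9 FPKM against 13.1 and 15.9, 1.30 ± 0.18, adjusted p = 0.0198), Mrpl34 (1.29 ± 0.15), Mrpl39 (1.14 ± 0.15) and Mrps27 (1.13 ± 0.18) led.

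Mrps6 was the gene lower at 10 °C, with 37.5 and 48.5 FPKM in mouse iBAT against 60.6 and 74.1 in sWAT (adjusted p = 0.0402), which relative to all genes is -0.17 ± 0.18. The count of 6 moved with the scale: it was 45 under median-ratio scaling, 22 under quantile normalization, 15 without the 10 highest genes in the scale and 32 with the coefficients less the median, and Mrps6 was called lower under none of these 4. The count over all 10689 genes moved as well, from 248 higher to 1344, 766, 366 and 797 in the same order. Without either iBAT library 0 were called higher, without the female sWAT library 1 and without the male sWAT library 10. At 10 °C 5 of 5 macrophage markers (11.6 and 10.9 summed FPKM in iBAT, 98.5 and 83.2 in sWAT), 3 of 5 for endothelium (112 and 105 against 135 and 177) and 1 of 8 for B lymphocytes were lower in iBAT, and 1 of 5 for brown fat was higher. None of 8 muscle markers was called, and their sums overlapped (24.8 and 773 against 20.8 and 1411). The part of these cells was not tested.

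Bat iBAT had higher levels than bat sWAT at both temperatures. At 30 °C 38 of the 57 were higher and none lower (11% and 13% of all genes), with a median difference of 0.83, and the pairs were apart upward for 52 (27.8% of all genes). Mrps31, mitochondria-specific, stood at 34.8 and 46.0 FPKM against 8.51 and 13.7 (1.86 ± 0.29, adjusted p = 0.00193). Mrpl10 stood at 41.4 and 41.8 against 11.1 and 13.2 (1.77 ± 0.29, adjusted p = 0.00240). Mrps25 (76.5 and 99.7 against 32.1 and 26.2, 1.63 ± 0.21) and Mrps27 (23.4 and 29.4 against 9.46 and 7.82, 1.57 ± 0.20) were next, and all 4 were apart by more than the spread of either pair. Without the female sWAT library 22 were called, and without the male iBAT library 20. Mrps6 had 5.79 and 6.02 FPKM in iBAT against 7.27 and 8.80 in sWAT (-0.31 ± 0.22, adjusted p = 0.249). It was the 1 gene below the median of all genes there. Of the markers, 3 of 5 for macrophages (28.1 and 25.6 summed FPKM against 94.3 and 62.7), 1 of 5 for endothelium, 1 of 3 for B lymphocytes and 2 of 5 for fat cells were lower in iBAT, and 2 of 5 for brown fat higher, and their part was not tested.

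At 10 °C 53 of the 57 were higher in bat iBAT than in bat sWAT and none lower (13.2% and 26.8% of all genes), with a median difference of 1.53. The pairs were apart upward for 56 (23.9% of all genes), and 45 to 48 genes were called without 1 library at a time. Mrpl10 stood at 111 and 92.6 FPKM against 17.2 and 13.4 (2.92 ± 0.29, adjusted p = 0.000111), Mrps27 at 66.7 and 68.2 against 11.8 and 10.3 (2.77 ± 0.20), Mrpl12 at 256 and 226 against 53.6 and 41.8 (2.58 ± 0.25) and Mrpl37 at 93.4 and 70.5 against 17.5 and 14.8 (2.52 ± 0.28). All 21 small subunit genes and 32 of 36 large subunit genes were called. In the same comparison 7 of 7 muscle markers (1.86 and 1.95 summed FPKM in iBAT, 277 and 536 in sWAT), 5 of 5 for macrophages (25.9 and 33.5 against 166 and 190), 3 of 3 for B lymphocytes (16.7 and 12.8 against 91.0 and 537) and 3 of 5 for endothelium (86.7 and 99.9 against 151 and 139) were lower in iBAT. So were the 1 tested T lymphocyte marker, 2 of 3 for epithelium, 2 of 5 for fat cells and 1 of 4 for mesothelium, while 2 of 5 for brown fat were higher, and their part was not tested.

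Bat aWAT changed its place between the other depots with temperature. Against bat sWAT at 30 °C, limma called 0 of the 57 in either direction, with 0 at an unadjusted p under 0.05 (0.662% and 0.227% of all genes), and the median difference was 0.08, or 0.01 to 0.18 without 1 library at a time. The smallest p belonged to Mrpl45 (41.6 and 38.5 FPKM against 33.1 and 27.4, 0.31 ± 0.19, adjusted p = 0.672), Mrps2 (0.29 ± 0.19, adjusted p = 0.711), Mrpl20 (-0.41 ± 0.22, adjusted p = 0.785) and Mrpl14 (-0.35 ± 0.21, adjusted p = 0.823). At 10 °C 48 of the 57 were higher in aWAT and none lower (10.4% and 11.5% of all genes), with a median of 1.25. Mrps27 (2.40 ± 0.20, adjusted p = 7.9e-05), Mrpl12 (2.24 ± 0.25), Mrpl10 (2.04 ± 0.29) and Mrpl37 (2.02 ± 0.28) led. Without the female aWAT library 30 were called. At 10 °C 7 of 7 muscle markers (1.8 and 2.15 summed FPKM in aWAT, 277 and 536 in sWAT), 4 of 5 for macrophages (44.8 and 88.1 against 166 and 190), 3 of 5 for endothelium, 2 of 5 for fat cells and 1 of 3 for epithelium were lower in aWAT. All 4 for mesothelium were higher (32.5 and 70.4 against 2.52 and 11.1), as they were at 30 °C (61.0 and 98.6 against 2.71 and 3.67), and 2 of 5 for brown fat were higher at 10 °C. Their part was not tested.

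Against bat iBAT the order was the reverse. At 30 °C 29 of the 57 were higher in iBAT and none lower (7.66% and 12.6% of all genes), with a median of 0.81 and the pairs apart upward for 52 (22.1% of all genes) and downward for 1 (40.3%). The largest differences were those of Mrpl10 (1.69 ± 0.29, adjusted p = 0.00573), Mrps25 (1.55 ± 0.21), Mrps31 (1.51 ± 0.29) and Mrps27 (1.43 ± 0.20). Without the female aWAT library or the male iBAT library 7 were called, and without the female iBAT library 16. At 30 °C 4 of 4 mesothelial markers (0.384 and 1.13 summed FPKM in iBAT, 61.0 and 98.6 in aWAT), 3 of 5 for macrophages (28.1 and 25.6 against 118 and 79.9), 2 of 3 for B lymphocytes, 2 of 5 for fat cells and 1 of 5 for endothelium were lower in iBAT, and 3 of 5 for brown fat higher (4709 and 3908 against 254 and 750). At 10 °C 3 of 4 for mesothelium were lower in iBAT, and the part of these cells was not tested. At 10 °C limma called 0 in either direction, with 6 at an unadjusted p under 0.05 (0.172% and 0.644% of all genes), and the median difference was 0.34, or 0.07 without the male aWAT library and 0.61 without the female one. Mrps6 (16.7 and 11.2 FPKM in iBAT against 8.85 and 7.76 in aWAT, 0.81 ± 0.22, adjusted p = 0.262), Mrpl48 (0.67 ± 0.19, adjusted p = 0.288), Mrpl55 (-0.34 ± 0.20, adjusted p = 0.364) and Mrps18a (-0.05 ± 0.18, adjusted p = 0.691) had the smallest p on either side. A p that misses the threshold does not show that the depots are alike.

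The other genes of mitochondrial translation were followed in 7 lists. Of all genes, 8.66% rose and 6.67% fell in the cold in bat aWAT, and 7.06% and 26.8% in mouse sWAT. In mouse iBAT 2.84% rose and 11.2% fell, in bat iBAT 1.22% and 0.980%, and in bat sWAT 0.943% and 0.0726%. The counts of the lists are to be read beside these shares. Translation factors carry tRNAs and move the ribosome along: in bat aWAT 7 of 11 rose in the cold and none fell, with a median of 1.19. Guf1, an elongation factor, stood at 17.6 FPKM on average in the cold against 6.10 (1.53 ± 0.22, adjusted p = 0.00359), Tsfm at 57.6 against 23.1 (1.42 ± 0.22, adjusted p = 0.00535), Gfm2, which helps to recycle ribosomes, at 7.5 against 2.76 (1.31 ± 0.21, adjusted p = 0.00621) and the initiation factor Mtif2 at 10.9 against 4.51 (1.31 ± 0.34, adjusted p = 0.0448). In mouse sWAT 4 of 11 rose: Gfm2 (1.65 ± 0.14, adjusted p = 0.00797), Tsfm (1.5 ± 0.16, adjusted p = 0.0114), Mtif2 (1.04 ± 0.21, adjusted p = 0.0463) and Guf1 (1.03 ± 0.17, adjusted p = 0.0302). In mouse iBAT 2 rose, Tufm (1.27 ± 0.25, adjusted p = 0.0462) and Gfm2 (0.99 ± 0.14, adjusted p = 0.0277), and in bat iBAT and sWAT 0 did.

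Mitochondrial tRNA synthetases and amidotransferase subunits, which charge the tRNAs, had 9 of 19 higher in bat aWAT, 5 of 19 in mouse sWAT, 3 in mouse iBAT, 1 in bat iBAT and 0 in bat sWAT. Iars2, the isoleucine enzyme, had 18.3 and 22.9 FPKM at 30 °C and 234 and 131 at 10 °C in bat aWAT (3.17 ± 0.26, adjusted p = 0.000249), more than any of the 57 mitoribosomal genes. In bat sWAT it stood between 17.3 and 20.9 in all 4 libraries. In bat iBAT it went from 126 and 95.6 to 270 and 274 (1.41 ± 0.26, adjusted p = 0.0392), while Gatc, a subunit of the amidotransferase, was called lower there, against the direction of the list. In mouse iBAT Cars2, the cysteine enzyme, rose from 9.08 and 6.54 to 28.1 and 24.4 FPKM (1.94 ± 0.20, adjusted p = 0.00870), beside Sars2 and Aars2.

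Assembly factors and enzymes that modify the ribosomal RNA were the next list. In bat aWAT 9 of 20 rose, led by Mterf3, which binds mitochondrial DNA and RNA (24.4 and 50.1 FPKM at 30 °C, 234 and 130 at 10 °C, 2.42 ± 0.36, adjusted p = 0.00353), Mtg2 (1.60 ± 0.35, adjusted p = 0.0213), Rcc1l (1.57 ± 0.20, adjusted p = 0.00196) and Mettl15 (1.32 ± 0.30, adjusted p = 0.0279). In mouse sWAT, where 26.8% of all genes were called lower, none of 20 rose. Called lower were 2, Mettl17 (-0.27 ± 0.19, adjusted p = 0.0440) and Rpusd4 (-0.22 ± 0.17, adjusted p = 0.0400), the latter also among those that rose in bat aWAT. The median in mouse sWAT was nonetheless 0.39, with 17 of 20 above the median of all genes. In mouse iBAT 0 of 20 were called, with a median of 0.12.

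Genes for transcription and handling of mitochondrial RNA had 6 of 15 higher in bat aWAT, among them Lrpprc, which steadies mitochondrial messages (1.40 ± 0.25, adjusted p = 0.0100), Pnpt1 (1.35 ± 0.20, adjusted p = 0.00426), Hsd17b10 (1.19 ± 0.24, adjusted p = 0.0187) and Slirp, the partner of Lrpprc (1.16 ± 0.22, adjusted p = 0.0136). In mouse sWAT Lrpprc rose (1.12 ± 0.18, adjusted p = 0.0271) and Polg, the DNA polymerase, was called lower (-0.56 ± 0.24, adjusted p = 0.0322). In mouse iBAT Trmt10c rose (0.96 ± 0.15, adjusted p = 0.0354) and Hsd17b10 fell (-0.83 ± 0.23, adjusted p = 0.0290), although both are parts of the same tRNA-processing enzyme. The polymerase Polrmt (0.73 ± 0.15 in mouse sWAT, adjusted p = 0.1004, and 0.52 ± 0.19 in bat aWAT, adjusted p = 0.189) and Tfam (0.10 ± 0.28, adjusted p = 0.484, and 0.53 ± 0.20, adjusted p = 0.203) were called in neither white depot.

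Inner membrane factors and proteases had 4 of 8 higher in bat aWAT, 5 of 8 in mouse sWAT and 1 each in mouse iBAT and bat iBAT. Letm1, an inner membrane protein that has been linked to the mitoribosome, was called in all 4: in mouse iBAT it went from 17.2 and 17.8 FPKM to 105 and 96.9 (2.76 ± 0.25, adjusted p = 0.00793) and in bat aWAT from 24.8 and 36.2 to 187 and 117 (2.40 ± 0.28, adjusted p = 0.00104). Afg3l2, a protease that trims the precursor of Mrpl32, went from 21.8 and 31.6 to 114 and 85.8 in bat aWAT (2.01 ± 0.21, adjusted p = 0.000738) and from 18.6 and 20.9 to 43.1 and 55.8 in mouse sWAT (1.64 ± 0.16, adjusted p = 0.00956). Oxa1l, which inserts new chains into the membrane, rose in bat aWAT (1.32 ± 0.27, adjusted p = 0.0164). Of the mitoribosomal proteins not named Mrp, Ptcd3 rose in bat aWAT (1.61 ± 0.24, adjusted p = 0.00353) and mouse sWAT (0.81 ± 0.13, adjusted p = 0.0386), and the other 2 measured were not called.

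Known regulators of nuclear genes for mitochondria did not move one way. In bat aWAT 3 of 11 rose and 1 fell: the coactivators Ppargc1a (5.35 and 5.23 FPKM at 30 °C, 21.8 and 47.9 at 10 °C, 2.55 ± 0.56, adjusted p = 0.0196) and Ppargc1b (1.5 ± 0.38, adjusted p = 0.0380) and the receptor Esrra (46.5 and 46.1 against 168 and 124, 1.76 ± 0.23, adjusted p = 0.00208) were higher, and the stress factor Atf4 was lower (-1.19 ± 0.34, adjusted p = 0.0295). In mouse sWAT 3 of 13 rose, namely Esrra (1.71 ± 0.16, adjusted p = 0.00829), Ppargc1b (1.65 ± 0.35, adjusted p = 0.0345) and Atf5 (1.62 ± 0.20, adjusted p = 0.0137). There 4 of 13 were called lower, beside 26.8% of all genes, namely Nrf1 (-0.64 ± 0.31, adjusted p = 0.0482), Gabpb1 (-0.68 ± 0.18, adjusted p = 0.0163), Yy1 and Myc. In mouse iBAT 1 of 13 rose and 3 were called lower (Yy1, Myc and Ddit3), beside 11.2% of all genes called lower. Atf5, of the mitochondrial stress response, went from 39.3 and 43.4 to 157 and 150 FPKM (2.17 ± 0.20, adjusted p = 0.00868).

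Beside these, nuclear genes of respiratory chain subunits rose for 36 of 50 in bat aWAT (1, Cox6b2, fell) and 44 of 51 in mouse sWAT (0 fell). In mouse iBAT 0 of 51 rose (1, Ndufa7, fell). Of all genes 8.66%, 7.06% and 2.84% rose in these comparisons. The medians were 1.55, 1.85 and 0.29, while 9 of the mitoribosomal genes rose in mouse iBAT with a median of 0.44. Genes of cytosolic ribosome proteins moved the other way, with 0 higher and 9 of 30 lower in bat aWAT, where 6.67% of all genes fell. In mouse sWAT 0 were higher and 25 of 36 lower (26.8% of all genes fell), and in mouse iBAT 0 and 12 of 36 (11.2%). The medians were -0.48, -0.87 and -0.84. In bat sWAT 0 of 30 cytosolic ribosome genes were called, with a median of -0.38, and 1 of 50 respiratory chain genes rose, with a median of -0.06. In bat iBAT neither list had a call. The medians there were -0.17 for the cytosolic ribosome genes and 0.65 for the respiratory chain genes, beside 0.50 for the mitoribosomal genes.

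In the mouse annotation the 57 genes lie on 16 chromosomes, with at most 10 on any 1. Of the 57, 22 have exons that overlap exons of another gene. The overlap is over 20% of their bases for 5: Mrps34 (77.8%), Mrps25 (69.8%), Mrpl43 (33.4%), Mrpl24 (26.3%) and Mrps27 (24.2%, with a noncoding gene). Those with less include Mrps6 (19.9%), Mrpl10 (14.1%) and Mrpl12 (13.1%). Fragments in such overlaps may have been split between genes by the counting, which is not described. Mrpl23 and Mrpl48, the 2 lowest in mouse, have named pseudogene copies in that annotation and are uncertain for the same reason.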

How the data were processed

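The authors deposited FPKM for 14871 genes in 20 libraries. Per the labels' protocols, RNA came from a kit for fatty tissue and went into standard Illumina libraries. Per the submitters' processing notes, CASAVA 1.8 was used. Aligner, build, counter and the assignment of bat reads: not given in the sources used here. Mouse identifiers were matched to symbols through the GENCODE M21 names (14723 matched, 148 did not), and exon overlaps were read from that annotation on GRCm38.

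Values were taken as log2(FPKM + 1), with a pseudocount of 1. Genes that reached an FPKM of 1 in 2 or more libraries were fitted for each species, all its groups together, with limma 3.58.1 in R 4.3.3 (empirical Bayes with trend). Tests were two-sided and p-values adjusted by Benjamini and Hochberg over all genes of a comparison. A fold change on this scale understates the change of low genes. The fit was tested on simulated data. With 2 libraries against 2 an exact permutation test has no p under the threshold, so none is given. Fragment totals were not available to this account, but low values lie on steps of whole fragments: within a species the depth ran from 0.958 to 1.12 times the median library in mouse and from 0.698 to 1.32 times in bat, so precision was close to even in mouse and lower in 3 of 4 bat iBAT libraries.

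The members, the gene lists and the tests were chosen with earlier results of these data known. Genes are named by a rule: per comparison up to 4 called in each direction with the largest change relative to all genes, or else up to 2 each way with the smallest p, those called against the leading direction, the 3 highest and 3 lowest by level in each species, a set of stalk, anchor and core proteins, and up to 4 called genes of each list. Some that it gives in the pathway lists were left out for length. Mrps23, Mrpl3, the genes named for overlapping exons, Polrmt, Tfam, Oxa1l, Cox6b2, Ndufa7 and those listed by name alone were added after their values were seen. Alternatives were another pseudocount, no filter, 3 scalings, centring on the median, sex as a term, no trend and leaving out each library. A planned search for promoter motifs was not run, since no promoter sequence was used here. Libraries of different depots share a title code for temperature and sex, though not a stated animal. Over all genes kept, the male less female difference correlated between depots at 0.37 to 0.41 in mouse and 0.26 to 0.55 in bat, and a paired fit with this code as a block was added as an alternative. The correlation includes any difference between the sexes that depots share.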

Additional observations from a re-analysis of the deposited data

Results flagged for a closer look

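The cold change differed between depots of 1 species for some genes, by a test of the difference itself. It was larger in bat aWAT than in bat sWAT for 17 of the 57 genes and smaller for none, where 2.68% and 1.73% of all genes were called. Among the 17, Mrps27 differed by 2.27, Mrpl10 by 1.96, Mrpl12 by 1.87 and Mrpl37 by 1.8 on the log2 scale relative to all genes. The count was not firm: it depended on single libraries, as given above, and was 9 when scaled without the 10 highest genes. In bat sWAT the skeletal muscle markers were higher in the cold libraries (277 and 536 summed FPKM) than in the warm ones (11.2 and 2.15), and their part in these differences was not tested.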

How the results depend on the processing

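Each group holds 2 libraries, 1 of each sex, so a change between temperatures rests on 4 libraries, the spread between animals of 1 sex is unknown, and sex cannot be told apart from other differences within a pair. Depth is known only relative to other libraries, and no limit for a value of 0 is given. No median change relative to all genes reversed in sign under any alternative run. Nor did the up to 4 largest called changes of each cold comparison with calls. Other single genes were not checked for this, and a count has no sign to reverse. Mrps26, called lower in mouse iBAT than in sWAT at 30 °C, lay above the median of all genes. Under median-ratio scaling the genes called higher numbered 20 in mouse iBAT and 47 in mouse sWAT in the cold, 49 and 45 between the mouse depots at 30 °C and 10 °C (0 and 0 lower), and 3 in bat iBAT in the cold. Quantile normalization gave 48 and 22 between the mouse depots (0 and 0 lower) and 2 in bat iBAT in the cold. Scaling without the 10 highest genes gave 0 lower between the mouse depots at 30 °C, 15 higher and 0 lower at 10 °C, 2 in bat iBAT in the cold, and 9 for the larger cold change in bat aWAT than in sWAT. With coefficients less the median of all genes the counts were 16 in mouse iBAT and 46 in mouse sWAT in the cold, 47 and 32 between the mouse depots (0 and 0 lower), and 26 for bat aWAT against sWAT in the cold change. Counts over all genes moved too. Under median-ratio scaling those called higher went from 304 to 687 in mouse iBAT and from 755 to 1188 in mouse sWAT in the cold. Between the mouse depots they went from 1144 to 2461 at 30 °C and from 248 to 1344 at 10 °C. For the cold change of bat aWAT against sWAT they went from 295 to 422 with coefficients less the median and to 220 without the 10 highest genes. With sex as a term 1 gene was called lower in mouse sWAT in the cold. In bat iBAT in the cold, no filter left 2 and no trend 3.

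Without 1 library at a time, the genes called higher in the cold were 0 in mouse iBAT, 1 to 31 in mouse sWAT (0 to 1 lower), 0 to 1 in bat iBAT and 12 to 41 in bat aWAT. Between the mouse depots they were 18 to 23 at 30 °C (0 lower) and 0 to 10 at 10 °C (0 to 1 lower), and for the difference in cold change 0 to 8. In bat they were 20 to 29 for iBAT against sWAT at 30 °C, 7 to 24 and 0 to 1 for iBAT against aWAT at 30 °C and 10 °C, 30 to 48 for aWAT against sWAT at 10 °C, and 1 to 26 for the cold change of aWAT against sWAT. Fewer libraries leave fewer degrees of freedom, and the lone library of a group is assumed to vary like the others. A paired fit, with libraries of 1 temperature and sex as a replicate block, was chosen after seeing the data and run for the depot comparisons and the differences of cold change. It gave 36 for the cold change of bat aWAT against sWAT and changed no other count by over 1.5 times. In that comparison the counts over all genes went from 295 to 604 larger and from 191 to 732 smaller. For the cold comparisons no library is shared by code, and sex stood as a term.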
